A study of Mus musculus with 9 samples.

Results

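The genes described here are 42 mouse genes that respond to interferon or sense nucleic acids, chosen by name from a fixed list of symbols. The list was drawn up with earlier results of these data known. All 42 matched a gene among the 35275 in the table of read counts, and 40 passed the filter on low counts and were tested. They were sorted by role into 7 sensors and their checks, 4 transcription factors, 19 antiviral effectors, 3 genes of the ISG15 system, 3 ADP-ribosylation partners and 6 interferon-inducible GTPases.

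RNA was sequenced from 9 mammary gland tumors of mice with the genotype Brca1Co/Co;MMTV-Cre;p53+/-, which every group shares. The MMTV promoter drives Cre mainly in mammary epithelium, so Brca1 is removed from the tumor cells, and all cells carry 1 disrupted copy of p53. Whether stromal and immune cells in the tumor kept Brca1 is not given in the sources used here. There were 3 groups of 3 tumors, which received saline, free Talazoparib (i.v. TLZ) or Talazoparib packed into nanoparticles (NanoTLZ). The i.v. route was used for both forms of the drug. Talazoparib is a PARP inhibitor. All 3 groups, saline included, received 5 doses at 3 doses per week, and each dose of the drug was 0.33 mg/kg. The tumors of a group came from different mice, and the labels give no age, litter or batch. Tumors given empty nanoparticles were not analysed here, so carrier and drug cannot be told apart in the NanoTLZ group. The same 3 saline tumors served as controls for both treatments.

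Type I interferon, made by cells that detect foreign or misplaced nucleic acid, binds a receptor whose kinases activate Stat2. With Irf9 it takes part in a complex that binds the interferon-stimulated response element (ISRE) in the promoters of target genes, while interferon gamma acts at a different element, called GAS. DNA in the cytosol is read by cGAS, which signals through Tmem173 (STING), and double-stranded RNA is read by Ddx58 (RIG-I) and Ifih1 (MDA5). Damaged DNA that leaks into the cytosol of BRCA-deficient cells under PARP inhibition is known to feed the cGAS and STING route in other models, and the members include targets of that route.

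The total count of a tumor lay between 17538380 and 21194980. Levels are given as CPM, the read count scaled to a common library size by the TMM method, and comparisons as log2 fold changes with standard errors (SE) from 1 edgeR fit to all 9 tumors, with p-values adjusted over the 15821 tested genes. Saline tumor 3 stood apart. Its mean rank correlation with the other tumors was 0.867, against 0.916 to 0.947 for the rest, its level of the basal keratin *Krt5* was 1849 CPM against at most 72.9 CPM elsewhere, and its 3 skeletal muscle markers summed to 473 CPM. In the other saline tumors these muscle markers summed to 12.8 and 125 CPM, and in each treated tumor to at most 0.757 CPM. Of the 6 epithelial markers, *Epcam* lay between 604 and 1368 CPM in all tumors, while *Krt14* ran from 122 to 2584 CPM. Against saline, 4 of the 6 had a negative fold change after i.v. TLZ and 5 after NanoTLZ, with 0 called.

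None of the 40 tested members was called by edgeR, that is, had an adjusted p under 0.05, in any comparison. The smallest adjusted p of a member was 0.437 for i.v. TLZ against saline, 0.552 for NanoTLZ against saline, 1 for NanoTLZ against i.v. TLZ and 0.288 for both treatments against saline. Of all tested genes, 0%, 0.00632%, 0% and 0.019% were called in these comparisons. With 3 tumors against 3, an exact permutation test of a single gene cannot give a p below 0.1. DESeq2 fitted to all 9 tumors also called 0 members, and gave 3, 3, 0 and 2 members an unadjusted p under 0.05 in the 4 comparisons. Of the 25112 genes to which it gave a p, 8.08%, 7.26%, 1.73% and 9.81% were under that limit, and it called 194, 110, 3 and 273 genes. The members varied from tumor to tumor more than most genes did, and 1 member, *Ifit1*, was higher in every treated tumor than in every saline tumor, as were 2.81% of all tested genes.

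**Figure D1:**
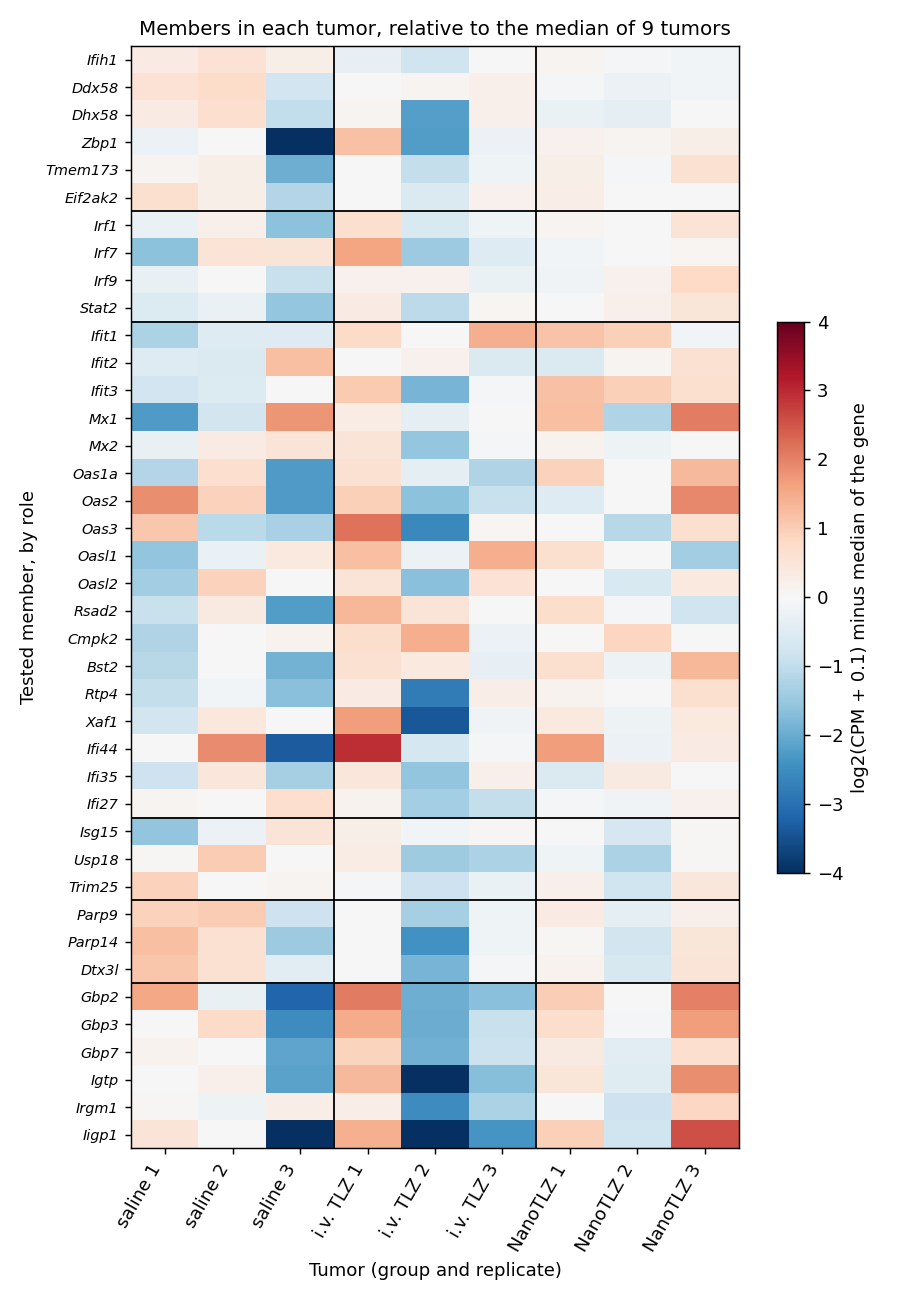
Each row is 1 of the 40 tested members, grouped by role between the horizontal lines, and each column is 1 tumor. Color gives log2(CPM + 0.1) minus the median of the gene over the 9 tumors, with red above and blue below, cut at 4 in either direction. Saline tumor 3 and i.v. TLZ tumor 2 are blue for most members, *Irgm1* in saline tumor 3 aside for the GTPases, while i.v. TLZ tumor 1 and NanoTLZ tumor 3 are mostly red.

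RefSeq promoter windows on GRCm38.p6, from 250 bases before to 50 bases after the start of a transcript, were found for 30 of the 42 members, in 35 windows. The ISRE core was searched on both strands as GAAANNGAAA and the GAS core as TTCNNNGAA. The ISRE core was present in 17 of 35 member windows (48.6%), against 3.44% of all 32851 windows, and in 17 of 30 genes (56.7%) against 3.99% of genes. The GAS core was present in 22.9% of member windows and 8.3% of all windows, and the motifs overlapped in 1 member window and in 24 of all windows. By gene, the ISRE core was found in 5 of 5 GTPases, 3 of 4 sensors, 7 of 14 effectors, 1 of 4 transcription factors, 1 of 2 genes of the ISG15 system and in 0 of 1 ADP-ribosylation partner. Of its 26 matches, 21 began within 160 bases before the start of the transcript and 3 after it. These motifs were chosen with the levels known, and a match is a description of letters and not of binding. The windows are reference sequence and the members were listed as interferon-responsive or sensing genes, so these shares say nothing about the tumors.

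Upstream stretches are shown for the members that carry an ISRE core before any annotated transcribed base and had the highest levels per length in their role, and for *Ifit1*, to let the shared core be read directly. They were chosen with the levels known. Capitals mark the core, which reads TTTCNNTTTC where it lies on the opposite strand, and position 0 is the first base of the RefSeq transcript.
*Ifit1*, chr19:34640774-34640843, plus strand, core at -85 to -76: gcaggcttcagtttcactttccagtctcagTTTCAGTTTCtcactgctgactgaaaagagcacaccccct
*Bst2*, chr8:71537557-71537626, minus strand, core at -124 to -115: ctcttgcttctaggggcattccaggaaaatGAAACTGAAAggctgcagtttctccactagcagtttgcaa
*Isg15*, chr4:156200845-156200914, minus strand, core at -66 to -57: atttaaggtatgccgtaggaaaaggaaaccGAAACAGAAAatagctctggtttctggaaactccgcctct
*Stat2*, chr10:128270248-128270315, plus strand, core at -222 to -213: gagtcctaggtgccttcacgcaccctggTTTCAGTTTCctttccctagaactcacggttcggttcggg
*Igtp*, chr11:58199492-58199555, plus strand, core at -34 to -25: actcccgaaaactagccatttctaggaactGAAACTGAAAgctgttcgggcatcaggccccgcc
*Gbp3*, chr3:142559975-142560025, plus strand, core at -39 to -30: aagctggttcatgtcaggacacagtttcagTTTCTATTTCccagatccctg
*Isg15* holds 3 matches in a row, at -78, -72 and -66, and second matches, not in capitals, begin at -104 in *Ifit1*, -130 in *Bst2* and -45 in *Gbp3*. The windows of *Bst2* and *Stat2* begin at a RefSeq start whose bases were not found in a GENCODE transcript of the gene. A core is thus shared by *Ifit1*, *Bst2* and *Isg15*, among others, and whether their fold changes differed from one another was not tested.

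Per length of exon, the members spanned nearly the whole range of expressed genes. *Bst2*, which tethers virus particles to the cell surface and marks several immune cells, was the highest at 62.9 CPM per kilobase, above 95.2% of tested genes, followed by *Gbp2* at 56.9 and *Tmem173* at 28.7 CPM per kilobase. In single tumors *Bst2* ran from 14.6 to 139 CPM per kilobase and *Gbp2* from 3.54 to 139, so the order of these neighbours is within their spread. The classic antiviral effectors stood at the other end. *Mx1*, *Mx2*, *Oas2*, *Oas3* and *Cmpk2* had means between 0.146 and 0.171 CPM per kilobase, each above at most 3.39% of tested genes, and their tumors overlapped throughout. *Isg15*, among the most strongly induced interferon targets, lay at 9.84 CPM per kilobase, above 66.8% of tested genes.

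**Figure D2:**
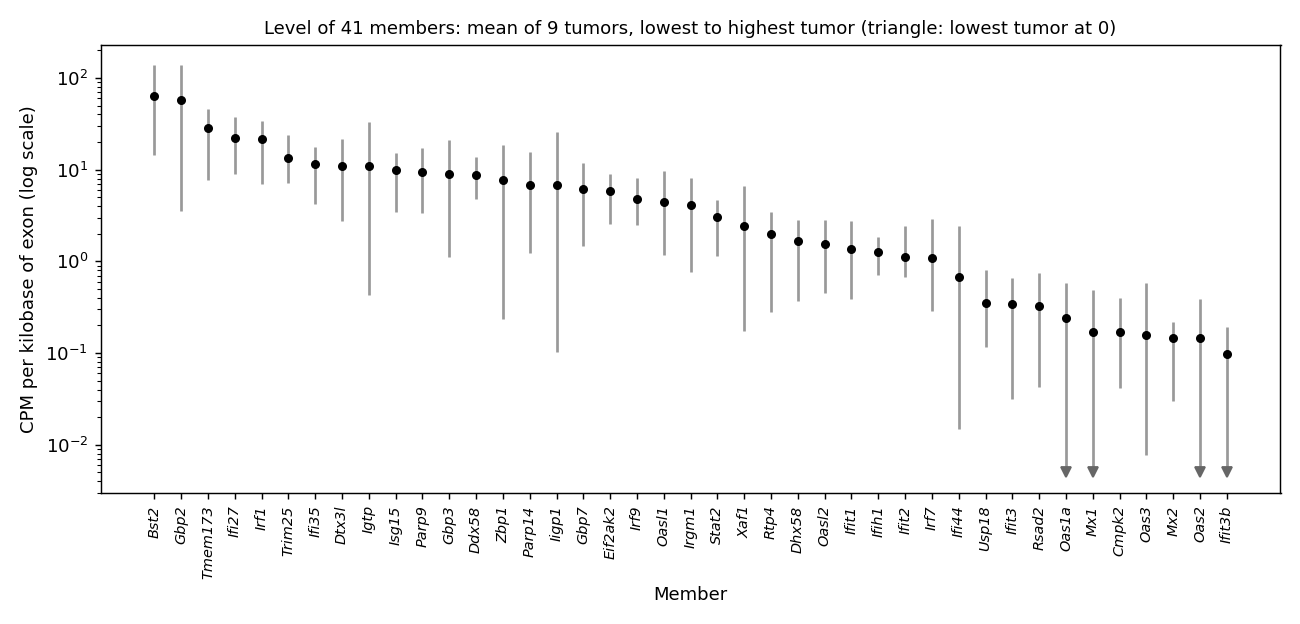
Points give the mean over 9 tumors of CPM per kilobase of exon on a log axis for the 41 members with any count, and lines run from the lowest to the highest tumor. Triangles mark members with a tumor at 0. *Bst2* and *Gbp2* lead at 62.9 and 56.9, and the members from *Oas1a* rightward lie at or under 0.241.

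Among the sensors, those of double-stranded RNA were not higher in the treated tumors. *Ifih1*, the sensor of long double-stranded RNA, read 12.6, 15.1 and 11.97 CPM in saline tumors 1 to 3. It read 7.998, 5.74 and 10.1 CPM in the i.v. TLZ tumors and 10.8, 9.71 and 9.36 CPM in the NanoTLZ tumors. Every treated tumor was thus below every saline tumor. The log2 fold change was -0.74 (SE 0.34) for i.v. TLZ and -0.41 (SE 0.34) for NanoTLZ, with edgeR adjusted p-values of 0.493 and 0.706. *Ddx58*, which reads RNA with a 5′ triphosphate, had 85.3, 96.5 and 34.0 CPM in the saline tumors, 57.7, 62.0 and 66.7 CPM after i.v. TLZ and 56.0, 49.4 and 53.4 CPM after NanoTLZ. All NanoTLZ tumors were below all i.v. TLZ tumors, and both lay inside the range of the saline tumors. NanoTLZ minus i.v. TLZ gave a log2 difference of -0.23 (SE 0.35).

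*Zbp1*, a sensor of left-handed Z-form nucleic acid that can trigger necroptosis, had 24.5, 28.9 and 0.826 CPM after saline and 65.0, 6.01 and 24.5 CPM after i.v. TLZ. After NanoTLZ it had 32.3, 30.9 and 33.9 CPM, above every saline tumor and closely grouped, with a mean of 32.4 ± 1.53 CPM (SD, n = 3). Saline tumor 3 lay far below the others, and the log2 fold change of 0.84 had an SE of 1.01. *Tmem173*, which encodes STING, read 89.1, 98.1 and 21.1 CPM after saline, 82.6, 43.0 and 73.9 CPM after i.v. TLZ and 96.2, 78.0 and 126 CPM after NanoTLZ. All groups overlapped, and the log2 fold changes were -0.06 (SE 0.50) and 0.53 (SE 0.51). *Dhx58*, a regulator of Ddx58 and Ifih1, and *Eif2ak2*, the kinase PKR that halts translation on double-stranded RNA, ranged from 1.20 to 9.29 and from 13.2 to 46.3 CPM with overlapping groups. *Trex1*, the exonuclease that clears cytosolic DNA, was listed at 0 in all 9 tumors. All of its 1147 exon bases lie within exons of *Atrip* on the same strand, and 95.8% of its 50-base words also occur in *Atrip*, which had 1726 counts. How such reads were assigned is not given in the sources used here, so no level of *Trex1* can be read from the table.

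*Irf1*, which is induced mainly by interferon gamma, had the highest level per length of the 4 transcription factors. It had 71.9, 99.3 and 27.8 CPM after saline, 134, 56.8 and 76.8 CPM after i.v. TLZ and 94.7, 86.9 and 128 CPM after NanoTLZ. The groups overlapped, with log2 fold changes of 0.43 (SE 0.46) and 0.64 (SE 0.46). *Stat2*, a subunit of the ISRE-binding complex, read 13.7, 16.4 and 6.79 CPM after saline, 25.0, 9.57 and 21.0 CPM after i.v. TLZ and 19.8, 23.1 and 27.9 CPM after NanoTLZ. The NanoTLZ tumors were all above the saline tumors, at a log2 fold change of 0.94 (SE 0.44, edgeR adjusted p = 0.563). *Irf9*, the DNA-binding part of the complex, read 20.4, 24.9 and 13.4 CPM after saline, 28.2, 27.9 and 20.7 CPM after i.v. TLZ and 22.6, 28.2 and 43.8 CPM after NanoTLZ. Its groups overlapped, at 0.39 (SE 0.35) and 0.69 (SE 0.35) on the log2 scale. *Irf7*, the amplifier of interferon alpha, ranged from 1.09 to 10.9 CPM. A positive fold change was seen in 4 of the 4 factors with i.v. TLZ and in 3 with NanoTLZ, and 0 passed the test.

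Among the effectors, *Ifit1* was higher in all 6 treated tumors. It encodes a protein that binds viral RNA lacking the methylated cap of host messages, and the gene (ENSMUSG00000034459) lies at chr19:34640871-34650009 in GRCm38. It read 1.03, 1.81 and 1.79 CPM after saline, 4.56, 2.62 and 7.30 CPM after i.v. TLZ and 5.97, 5.13 and 2.43 CPM after NanoTLZ. All 6 treated tumors were above the 3 saline tumors, and the treatments overlapped each other. The mean was 1.54 ± 0.445 CPM after saline, 4.83 ± 2.35 CPM after i.v. TLZ and 4.51 ± 1.85 CPM after NanoTLZ (SD, n = 3). The log2 fold change was 1.64 (SE 0.56, edgeR adjusted p = 0.437) for i.v. TLZ and 1.54 (SE 0.56, adjusted p = 0.552) for NanoTLZ, so the call was not made. NanoTLZ minus i.v. TLZ gave a log2 difference of -0.10, with a 95% interval from -1.30 to 1.11. Of its 50-base words, 7.1% also occur in other genes, chiefly *Ifit1bl2*.

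*Bst2* had 23.1, 49.4 and 13.2 CPM after saline, 74.7, 64.8 and 39.6 CPM after i.v. TLZ and 77.8, 43.2 and 125 CPM after NanoTLZ. The third i.v. TLZ tumor and the second NanoTLZ tumor lay below saline tumor 2, so the groups overlapped. Its log2 fold change was 1.06 (SE 0.52, edgeR adjusted p = 0.509) for i.v. TLZ and 1.52 (SE 0.53, adjusted p = 0.552) for NanoTLZ. *Ifit3*, a partner of Ifit1, was scarce, with 0.229, 0.286 and 0.459 CPM after saline, 1.07, 0.0547 and 0.433 CPM after i.v. TLZ and 1.16, 0.982 and 0.776 CPM after NanoTLZ. The NanoTLZ tumors were above all saline tumors, but 51.2% of its 50-base words are shared with *Ifit3b*, so its level is uncertain. *Ifit3b* had 0 to 8 counts per tumor and was not tested. *Rtp4*, a chaperone of G protein-coupled receptors that restrains some RNA viruses, read 2.40, 4.38 and 1.42 CPM after saline, 5.96, 0.601 and 5.68 CPM after i.v. TLZ and 5.25, 4.75 and 7.45 CPM after NanoTLZ, again with all NanoTLZ tumors above all saline tumors. Its log2 fold change for NanoTLZ was 1.09 (SE 0.75). Of the 50-base words of *Rtp4*, 11.6% also occur in *Gm45338*, which overlaps its exons on the same strand.

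*Ifi27*, a mitochondrial and nuclear membrane protein, went the other way after i.v. TLZ. It had 36.7, 34.0 and 54.6 CPM after saline, 37.1, 13.1 and 17.6 CPM after i.v. TLZ and 33.3, 30.6 and 38.4 CPM after NanoTLZ. The first i.v. TLZ tumor lay among the saline tumors and the others below them, at a log2 fold change of -0.88 (SE 0.40, edgeR adjusted p = 0.48). For NanoTLZ it was -0.29 (SE 0.39). The oligoadenylate synthetases *Oas1a*, *Oas2* and *Oas3*, which activate RNase L on double-stranded RNA, stayed at or below 4.07 CPM, and *Oas1a* shares 57.6% of its 50-base words with other genes, chiefly *Oas1g*. *Mx1* and *Mx2*, antiviral GTPases, stayed at or below 1.86 CPM. *Rsad2* (viperin) did not exceed 3.25 CPM and *Cmpk2* 1.64 CPM. *Oasl1*, *Oasl2*, *Ifi35*, *Xaf1*, *Ifi44* and *Ifit2* reached 25.1, 17.97, 30.7, 30.8, 15.0 and 9.45 CPM in their highest tumors, with overlapping groups in each case. Of the 18 tested effectors, 12 had a positive fold change after i.v. TLZ and 13 after NanoTLZ.

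**Figure D3:**
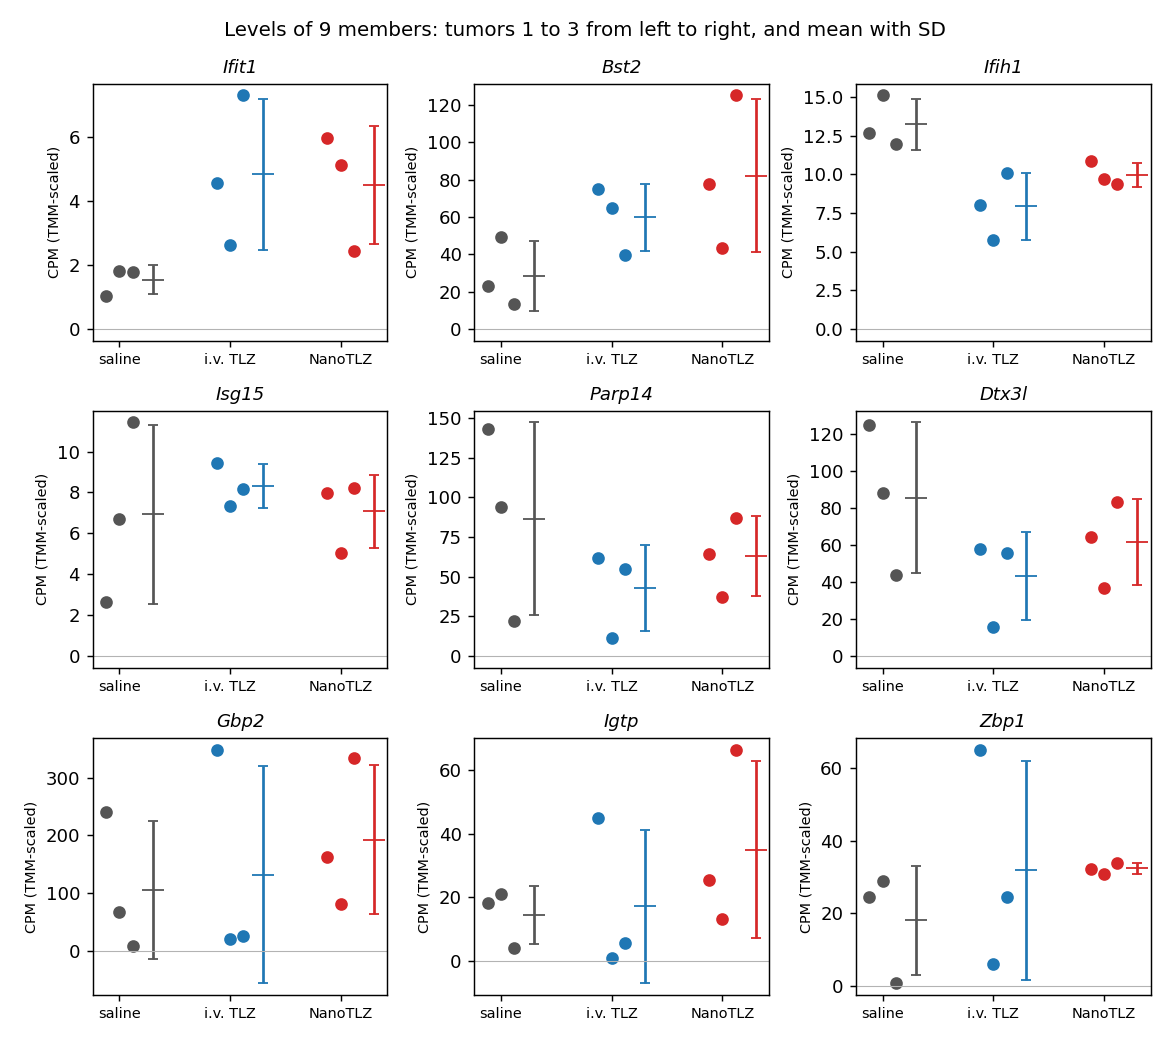
Points give CPM in tumors 1 to 3 of each group from left to right, and bars the mean with its SD (n = 3), for 9 members. *Ifit1* is higher and *Ifih1* lower in all 6 treated tumors than in the 3 saline tumors, while the tumors of a group differ widely for *Gbp2*, *Igtp* and *Zbp1*.

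The ISG15 system attaches a small ubiquitin-like protein to other proteins during the antiviral state. *Isg15* itself read 2.63, 6.72 and 11.4 CPM after saline, 9.45, 7.33 and 8.17 CPM after i.v. TLZ and 7.99, 5.02 and 8.23 CPM after NanoTLZ. The saline tumors held both the lowest and the highest value, and the log2 fold changes were 0.26 (95% interval -0.88 to 1.41) and 0.03 (-1.12 to 1.18). *Trim25*, a ligase for ISG15 and an activator of Ddx58, read 138, 72.7 and 78.7 CPM after saline, 70.7, 41.2 and 60.003 CPM after i.v. TLZ and 83.7, 42.1 and 99.3 CPM after NanoTLZ. All i.v. TLZ tumors were below all saline tumors, at a log2 fold change of -0.75 (SE 0.39, edgeR adjusted p = 0.519). *Usp18*, which removes ISG15 and damps the receptor, ranged from 0.328 to 2.24 CPM with overlapping groups.

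Of the ADP-ribosylation partners, Parp9 and Parp14 are interferon-induced members of the PARP family and Dtx3l is the ubiquitin ligase that pairs with Parp9. Whether the drug acts on any of them was not tested. *Parp9* read 77.4, 83.3 and 23.1 CPM after saline, 41.2, 16.5 and 37.0 CPM after i.v. TLZ and 51.9, 31.6 and 47.5 CPM after NanoTLZ. *Dtx3l* read 125, 87.9 and 43.5 CPM after saline, 57.9, 15.9 and 55.5 CPM after i.v. TLZ and 64.0, 36.9 and 83.0 CPM after NanoTLZ. In both, every treated tumor lay below saline tumors 1 and 2, and saline tumor 3 lay among the treated tumors. *Parp14* was arranged likewise, with 143, 93.8 and 22.4 CPM after saline, 61.9, 11.5 and 55.0 CPM after i.v. TLZ and 64.3, 37.4 and 87.3 CPM after NanoTLZ. The log2 fold changes for i.v. TLZ were -0.96 (SE 0.50) for *Parp9*, -0.98 (SE 0.54) for *Dtx3l* and -1.01 for *Parp14*, with adjusted p-values of 0.523, 0.538 and 0.619. For NanoTLZ they were -0.49, -0.48 and -0.46.

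The lowest tumor for *Parp9*, *Dtx3l* and *Parp14* was i.v. TLZ tumor 2. When it was left out, 0 members were lower after i.v. TLZ at an unadjusted edgeR p under 0.05, with 4.99% of all genes. Without saline tumor 3 the i.v. TLZ values became -1.34 for *Parp9*, -1.29 for *Dtx3l* and -1.46 for *Parp14*. Their edgeR adjusted p-values ran from 0.447 to 0.503. These genes are neighbours on chromosome 16. *Parp9* (chr16:35938470-35972605) and *Dtx3l* (chr16:35926511-35939151) lie head to head on opposite strands and share 458 exon bases, and *Parp14* (chr16:35832874-35871544) lies nearby. The strand setting of the counting is not given in the sources used here, so reads on the shared bases cannot be told apart.

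The interferon-inducible GTPases, which attack the membranes around intracellular pathogens and respond strongly to interferon gamma, carried the widest spread. Their mean log2 CPM ran over 4.52 between the lowest and highest tumor, against 1.16 to 2.94 in the other roles. *Gbp2* had 240, 67.1 and 8.90 CPM after saline, 349, 21.1 and 25.8 CPM after i.v. TLZ and 163, 81.9 and 333 CPM after NanoTLZ. The groups overlapped, the highest tumor was 39.2 times the lowest, and the log2 fold changes were 0.33 (SE 1.20) and 0.87 (SE 1.21). *Igtp* read 18.2, 21.1 and 4.04 CPM after saline, 44.8, 0.875 and 5.52 CPM after i.v. TLZ and 25.3, 13.1 and 66.4 CPM after NanoTLZ, a 75.9-fold range. The same pairs of tumors led and trailed as for *Gbp2*. *Iigp1* spanned from 0.596 CPM in saline tumor 3 to 152 CPM in NanoTLZ tumor 3, a 255-fold range. *Gbp3*, *Gbp7* and *Irgm1* ranged 18.8-fold, 7.93-fold and 10.4-fold.

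Of the 6 GTPases, 4 were highest in NanoTLZ tumor 3 and 2 in i.v. TLZ tumor 1, and 4 were lowest in saline tumor 3 and 2 in i.v. TLZ tumor 2. Their summed level was 383, 208 and 57.2 CPM in the saline tumors, 620, 41.9 and 78.4 CPM in the i.v. TLZ tumors and 345, 172 and 723 CPM in the NanoTLZ tumors. Some sharing of reads is possible, since 11.8% of the 50-base words of *Igtp* occur in other genes, here *Irgm2*, and 12.7% of those of *Gbp7*, chiefly in a pseudogene. After NanoTLZ 6 of 6 had a positive fold change and after i.v. TLZ 5 of 6, with 0 called.

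Immune markers differed between tumors as well. In bulk tumor RNA, fewer cells of a type and less RNA per cell cannot be told apart. The 4 leukocyte markers summed to 109 to 450 CPM in the saline tumors, 168 to 411 CPM after i.v. TLZ and 372 to 580 CPM after NanoTLZ. The lowest values were again in saline tumor 3 and i.v. TLZ tumor 2, and the highest in NanoTLZ tumor 3. The 8 T and NK cell markers summed to 4.46 to 15.7 CPM after saline, 2.19 to 23.3 CPM after i.v. TLZ and 14.8 to 36.8 CPM after NanoTLZ, and 7 of them passed the filter. *Cd3e* was between 0.0918 and 5.28 CPM, and *Ncr1*, which marks NK cells, was at 0 in 8 of 9 tumors. The 6 macrophage markers summed to 374 to 1376 CPM after saline, 589 to 1331 CPM after i.v. TLZ and 1302 to 1789 CPM after NanoTLZ. The 4 plasmacytoid dendritic cell markers summed to 106 to 137, 103 to 161 and 154 to 181 CPM, but *Siglech*, the most specific of them, did not exceed 1.30 CPM. The 4 B and plasma cell markers summed to 0.826 to 2.62 CPM after saline, 2.16 to 24.4 CPM after i.v. TLZ and 2.46 to 36.6 CPM after NanoTLZ, and 2 of them were tested. Of these, *Cd79a*, part of the B cell receptor, read 0.172, 0.0953 and 0.275 CPM after saline, from 3, 2 and 6 counts, 2.18, 1.64 and 0.541 CPM after i.v. TLZ and 4.04, 0.437 and 1.29 CPM after NanoTLZ. It was higher in each of the 6 treated tumors, as *Ifit1* was, but was not called (edgeR adjusted p = 0.282 for both treatments). The 3 fibroblast markers summed to 526 to 1045, 507 to 3143 and 815 to 1490 CPM, and the 3 endothelial markers to 50.8 to 101, 45.6 to 116 and 102 to 124 CPM. The part of these cells in the levels of the members was not tested.

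**Figure D4:**
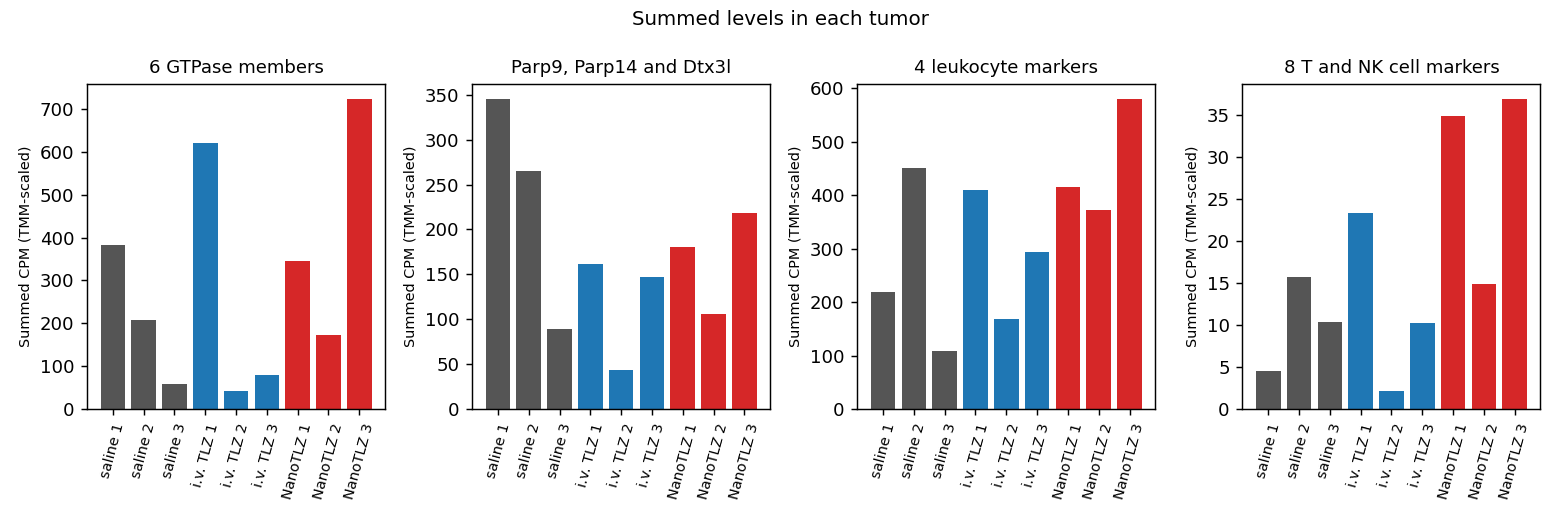
Bars give summed CPM in each tumor, with saline in gray, i.v. TLZ in blue and NanoTLZ in red, for the 6 GTPases, the 3 ADP-ribosylation partners, 4 leukocyte markers and 8 T and NK cell markers. The GTPases run from 41.9 to 723 CPM and are lowest in i.v. TLZ tumor 2, saline tumor 3 and i.v. TLZ tumor 3.

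The spread of the members was wider than that of most genes. The median SD of log2 CPM within a group was 0.91 over the 40 tested members and 0.53 over all tested genes, and the median range over the 9 tumors was 2.97 and 1.72. Saline tumor 3 was the lowest tumor for 16 members and i.v. TLZ tumor 2 for 17. Over all tested genes they were lowest for 24.4% and 14.8%. NanoTLZ tumor 3 was the highest tumor for 12 members and i.v. TLZ tumor 1 for 9, against 7.42% and 10.7% of all genes. *Ifih1*, *Ddx58*, *Irf9* and *Trim25* had the narrowest ranges, and *Iigp1*, *Ifi44*, *Zbp1* and *Igtp* the widest. The median SE of a fold change against saline was 0.68 for members and 0.44 for all genes in both treatments.

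Across the whole set more fold changes were positive than negative. After i.v. TLZ 23 members had a positive and 17 a negative fold change, with a median of 0.26 on the log2 scale against -0.03 over all tested genes. After NanoTLZ 26 were positive and 14 negative, with a median of 0.25 against -0.09. For NanoTLZ against i.v. TLZ 29 were positive and 11 negative, with a median of 0.32 against -0.04, and for both treatments against saline 25 and 15, with a median of 0.35 against -0.06. Over all genes, 47.6%, 43.9%, 45.6% and 46% had a positive fold change. Leaving out i.v. TLZ tumor 1 turned the median for i.v. TLZ to -0.73, with 10 positive members, and leaving out saline tumor 3 turned it to -0.13, so its direction rested on single tumors. For NanoTLZ the median lay between 0.19 and 0.55 whichever tumor was left out. For NanoTLZ against i.v. TLZ it fell to 0.036 without i.v. TLZ tumor 2 and to 0.10 without NanoTLZ tumor 3, and was 0.78 without i.v. TLZ tumor 1. For both treatments it was -0.26 without i.v. TLZ tumor 1 and 0.17 without saline tumor 3.

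**Figure D5:**
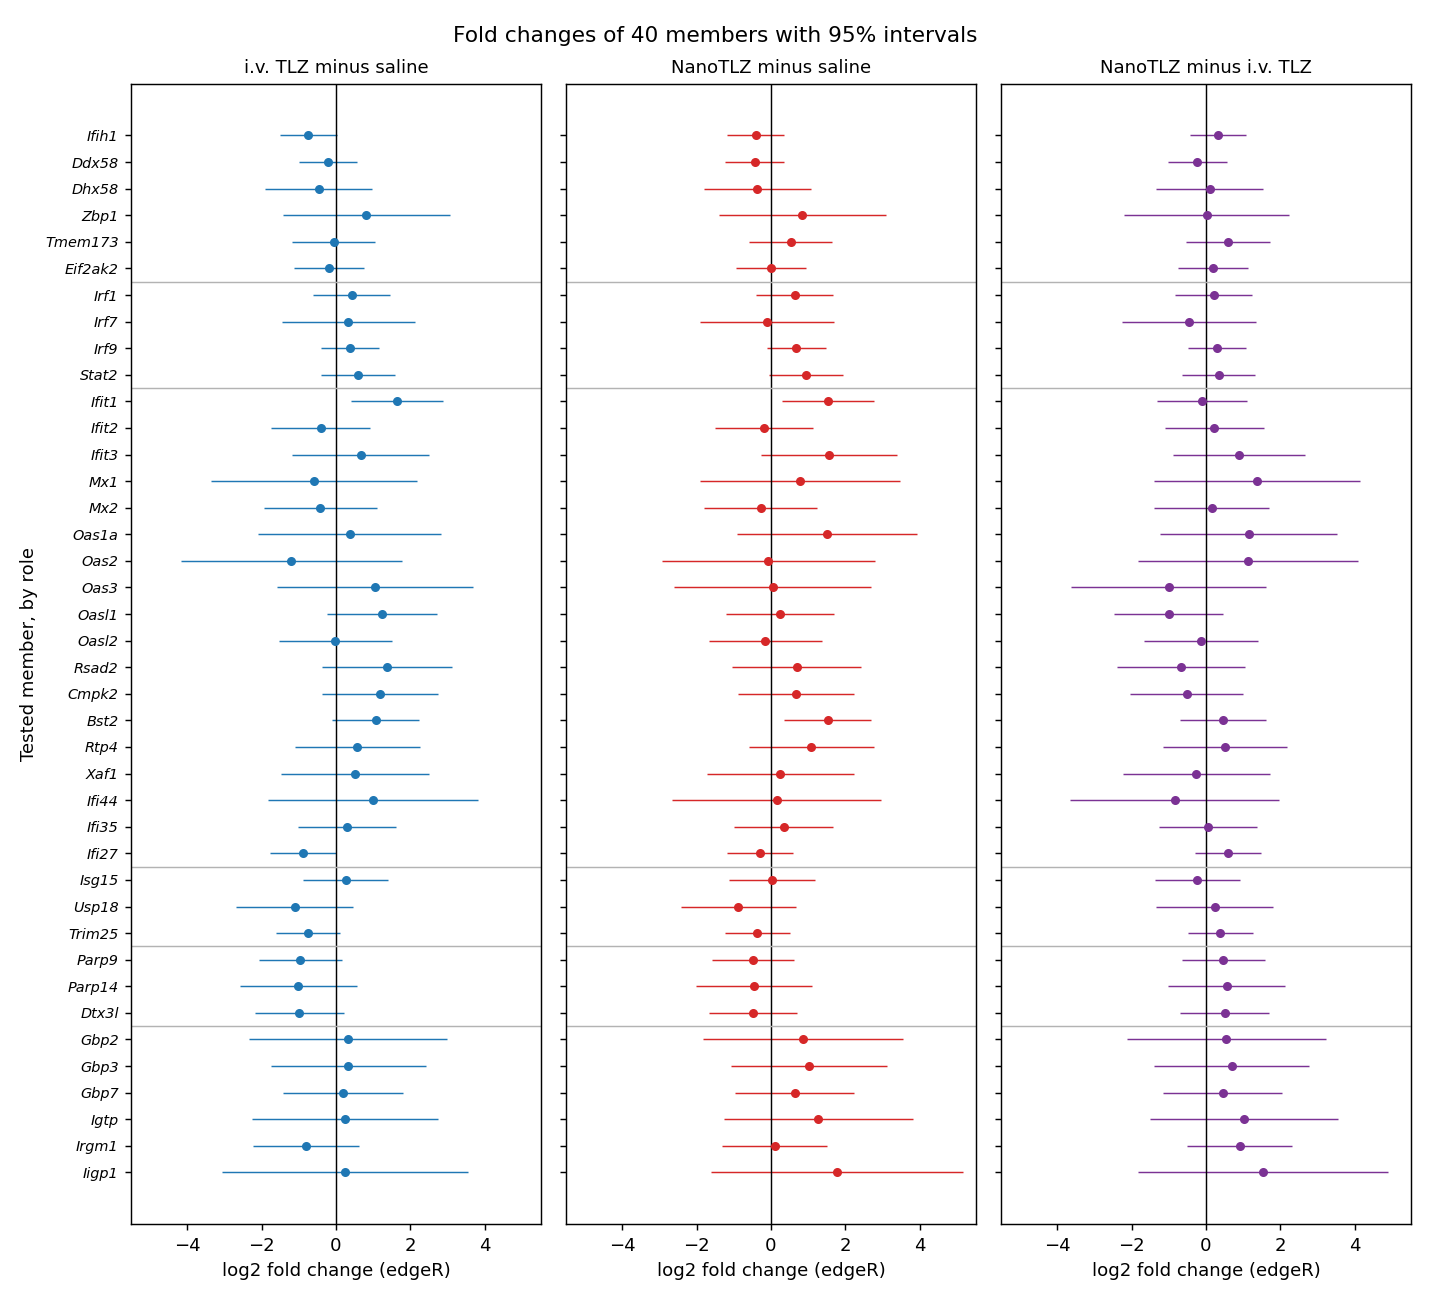
Points give the log2 fold change of each tested member and lines its 95% interval from edgeR, for i.v. TLZ against saline, NanoTLZ against saline and NanoTLZ against i.v. TLZ, with members grouped by role. The intervals of *Ifit1* exclude 0 in both comparisons with saline, those of *Bst2* for NanoTLZ and *Ifi27* for i.v. TLZ do so as well, and all others cross 0 before adjustment.

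Counts of members past weaker limits are set here beside the share of all tested genes that passed them in the same direction. At an unadjusted edgeR p under 0.05, 1 member was higher after i.v. TLZ (*Ifit1*) and 1 lower (*Ifi27*), while 4.91% and 5.47% of all genes were. After NanoTLZ 2 were higher (*Ifit1* and *Bst2*) and 0 lower, with 3.51% and 5.49% of all genes. For both treatments together 2 were higher (the same genes) and 0 lower, with 4.8% and 8.29%. Between NanoTLZ and i.v. TLZ 0 members passed in either direction, with 0.449% and 1.23% of all genes. These counts moved with single tumors. Without saline tumor 3, 5 members were lower after i.v. TLZ (*Ddx58*, *Dtx3l*, *Ifih1*, *Parp9* and *Parp14*) and 2 higher, with 4.19% and 5.35% of all genes in that fit. After NanoTLZ, 0 were higher without saline tumor 1 and 5 without saline tumor 2, with 3.45% and 6.94% of all genes. For both treatments 1 was higher without saline tumor 1 or 3, 4 without saline tumor 2 and 5 without i.v. TLZ tumor 2, with 4.33%, 4.4%, 8.05% and 5.16% of all genes. In that comparison 3 were lower without saline tumor 3 and 2 without i.v. TLZ tumor 1, with 4.87% and 6.47% of all genes. Without i.v. TLZ tumor 1, 3 were lower after i.v. TLZ, with 3.52% of all genes. Without saline tumor 3, 1 was lower after NanoTLZ, with 3.26%. Groups without overlap gave 1 member higher (*Ifit1*) and 2 lower (*Ifih1* and *Trim25*) after i.v. TLZ, with 5.99% and 5.2% of all genes. After NanoTLZ they gave 5 higher (*Ifit1*, *Ifit3*, *Rtp4*, *Stat2* and *Zbp1*) and 1 lower (*Ifih1*), with 7.82% and 8.13%. Between the treatments 0 were higher and 1 lower (*Ddx58*), with 3.2% and 4.41%. For all 6 treated tumors against saline 1 was higher (*Ifit1*) and 1 lower (*Ifih1*), with 2.81% and 2.66%. The 5 members after NanoTLZ are 12.5% of those tested.

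The rest of the pathway was read from lists of 81 further genes, of which 60 were tested and 0 called in any comparison. Of the 19 interferon genes, 0 passed the filter. *Ifnb1*, the first interferon made by most cells, had 0 to 9 counts per tumor, and *Ifng* had at most 20 counts, in NanoTLZ tumor 3. Of the 12 adaptors, kinases and interferon regulatory factors, a positive fold change was seen in 7 with i.v. TLZ and in 9 with NanoTLZ, and of the 8 negative regulators, 3 and 4. Of the 11 genes for nucleic acid clearance and editing, 8 and 10 had one. Among 14 other tested sensors, 7 were positive after i.v. TLZ and 10 after NanoTLZ.

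Among the 5 tested cytokines of the STING and interferon output, 4 were positive after i.v. TLZ and 5 after NanoTLZ, with medians of 0.75 and 2.08. In this list *Ccl5* and *Tnf* were higher in each of the 6 treated tumors than in the 3 saline tumors, as were 2.81% of all tested genes. No tested gene of the other pathway lists was higher in this way. *Ccl5*, which draws T cells, read 0.744, 10.1 and 4.27 CPM after saline, 13.3, 10.4 and 14.5 CPM after i.v. TLZ and 27.7, 11.2 and 18.9 CPM after NanoTLZ. Its log2 fold change was 1.33 (SE 0.72) and 1.93 (SE 0.73), and that of *Tnf* was 1.65 (SE 0.74) and 1.67 (SE 0.74). *Tnf* read 1.77, 11.4 and 1.15 CPM after saline. In the treated tumors it read 12.1, 15.6 and 17.3 CPM after i.v. TLZ and 19.4, 13.5 and 12.9 CPM after NanoTLZ. For both genes saline tumor 2 lay only just below the lowest treated tumor. For both treatments against saline, each had an adjusted edgeR p of 0.355.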

How the data were processed

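For each of the 9 tumors the authors deposited 1 column of raw counts, the reads on each gene, which were not normalized. Library preparation followed standard Illumina protocols. The submitters' processing notes list TopHat2, DESeq2 and mm10 without their roles; the counting program and strand setting are not given in the sources used here. Symbols, positions and exon lengths came from GENCODE M21 (GRCm38), in which 34490 of 35275 identifiers were found. No counts were listed in any tumor for 9792 genes, and no columns were identical.

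Genes were filtered with filterByExpr (minimum count 10, minimum total 15), which left 15821. Counts were normalized by TMM and tested by quasi-likelihood F-tests in edgeR 4.0.16 (R 4.3.3), with 1 coefficient per group and Benjamini-Hochberg adjustment over all tested genes. The common biological coefficient of variation was 49.8%. CPM used TMM library sizes; log2 CPM used a prior count of 2. SE was the fold change divided by the square root of F. Depth limits low members: counts of 3 or fewer were treated as the floor, which covers counting error only. The method was tested on simulated data with planted changes larger than any fold change of a member in the main fit. Its power at the fold changes and spread of the members was not tested. Promoters came from RefSeq (GRCm38.p6), and motifs were searched in Python 3.11.15 with pandas 2.3.3.

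The members and lists were chosen with earlier results of these data known. Every tumor's value is given for members whose groups did not overlap in a pairwise comparison, members with an unadjusted p under 0.05, and the 2 highest members per length in each role; *Parp14* was added with its neighbours, and *Iigp1*, *Gbp3*, *Gbp7*, *Irgm1* and other members are given by range. Alternatives were DESeq2 1.42.0, edgeR on the groups compared, limma-voom (limma 3.58.1), RLE and upper quartile normalization, other filters, robust dispersion, and each tumor left out in turn. The results of 1 list of receptor and signalling genes are not reported here.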

Additional observations from a re-analysis of the deposited data

How the results depend on the processing

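No member was called in any comparison under any of the alternatives. The smallest adjusted p was 0.0582, for *Ifit1* with both treatments against saline in DESeq2, which called 273 genes. Of 1255 fold changes of the 18 members given in full, 1228 kept their direction and 27 turned, 25 of them when a tumor was left out. *Ifit1*, *Bst2* and *Ifih1* kept theirs against saline under all of them. No paired analysis was possible because the labels give the tumors no numbers that groups could share. The causes were not tested.

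Fold changes that turned are given on the log2 scale as the lowest and highest value with 1 tumor left out. For i.v. TLZ against saline the median over members ran from -0.73 (without i.v. TLZ tumor 1) to 0.56, *Ddx58* from -0.54 to 0.054, *Gbp2* from -2.17 to 1.79, *Ifit3* from -0.41 to 1.19, *Igtp* from -2.17 to 0.80, *Isg15* from -0.11 to 0.83, *Tmem173* from -0.49 to 0.27 and *Zbp1* from -0.25 to 1.33. With limma-voom, *Igtp* was at -0.85 and *Tmem173* at 0.18. For NanoTLZ against saline *Isg15* ran from -0.32 to 0.62 and *Trim25* from -0.58 to 0.018. For NanoTLZ against i.v. TLZ *Gbp2* ran from -0.078 to 3.04, *Ifit1* from -0.39 to 0.35, *Irf1* from -0.029 to 0.63 and *Zbp1* from -0.46 to 1.09. Without i.v. TLZ tumor 1, 7 members, the 6 GTPases and *Ifi27*, had an unadjusted edgeR p under 0.05 in that comparison, all higher after NanoTLZ and each with an adjusted p of 1, while 1.89% of all genes were higher at that limit in that fit. For both treatments the median ran from -0.26 (without i.v. TLZ tumor 1) to 0.58 (without saline tumor 2), *Gbp2* from -0.65 to 2.08, *Igtp* from -0.45 to 1.13, *Isg15* from -0.22 to 0.73 and *Tmem173* from -0.18 to 0.56.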

Other observations

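Among the sensors outside the member list, *Tlr3*, the endosomal receptor for double-stranded RNA, had the smallest p of the pathway lists. It read 66.9, 41.1 and 91.3 CPM after saline, 26.8, 26.1 and 31.9 CPM after i.v. TLZ and 41.3, 24.1 and 39.4 CPM after NanoTLZ. The i.v. TLZ tumors were all below the saline tumors, while NanoTLZ tumor 1 lay just above the lowest of them. Against saline the log2 difference was -1.23 with i.v. TLZ and -1.08 with both treatments, at edgeR adjusted p-values of 0.417 and 0.279. *Tlr3* was chosen after its values were seen. After NanoTLZ, 3 of the 14 tested sensors of its list were higher (*Ifi204*, *Ifi205* and *Unc93b1*) and 1 lower at an unadjusted edgeR p under 0.05. Of all genes, 3.51% and 5.49% were. After i.v. TLZ 0 were higher and 1 lower, with 4.91% and 5.47% of all genes. *Mb21d1*, which encodes cGAS, had log2 fold changes of -0.42 (SE 0.45) for i.v. TLZ and -0.40 (SE 0.45) for NanoTLZ. *Cxcl9*, a chemokine induced by interferon gamma, spanned from 0.596 CPM in saline tumor 3 to 119 CPM in NanoTLZ tumor 3. *Cxcl9* was also chosen after its values were seen.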
